A study of Homo sapiens with 16 samples.

Results

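The DNA bound by DNMT3B and OCT1 in MCF10CA1a cells is described at 4 calcium channel genes, *CACNA1C*, *CACNA1B*, *CACNA2D1* and *RYR2*. Their peaks are all those that the deposited lists assign to any of the 4 genes, each peak counted once. This gives 107 peaks of 118439 in the 4 lists together. By list, they are 16 of 15855 DNMT3B peaks in vehicle-treated cells and 8 of 4326 in PTS-treated cells. For OCT1 they are 73 of 82187 in vehicle-treated cells and 10 of 16071 upon PTS. The genes were chosen with their peaks in these lists known, so their pileups are given as a description, without a test.

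MCF10CA1a is an invasive human breast cancer cell line derived from MCF10A cells that carry an activated Harvey-ras oncogene and were grown as xenografts. The cells received pterostilbene (PTS), a stilbenoid polyphenol, at 7 µM for 9 days, or the vehicle ethanol. Chromatin immunoprecipitation followed by sequencing was done in 3 biological replicates per antibody and treatment, with 1 input library for each antibody and treatment. Only 1 line was studied, and each list pools its 3 replicates, so no spread between replicates can be given for any value. By the labels, 1 list of each antibody holds what was enriched in control cells and the other what was enriched upon PTS. In both, a fold sets the pileup against 1 constant background, 3.20 for DNMT3B and 3.50 for OCT1, and no value of the other treatment enters it. That background corresponds to 43200000 to 47700000 reads per pool, at the fragment size and genome size that the authors set.

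Voltage-gated calcium channels open when the membrane depolarizes and let calcium enter the cell. Their pore subunit carries the current, and auxiliary subunits bring the pore to the surface and tune its opening. *CACNA1C* encodes the pore of the L-type channel of heart, smooth muscle and neurons. *CACNA1B* encodes the pore of the N-type channel of nerve terminals, and *CACNA2D1* encodes an alpha2delta subunit that binds gabapentin. *RYR2* encodes the ryanodine receptor of the heart, which releases calcium from the stores inside the cell. DNMT3B is a de novo DNA methyltransferase that acts on cytosines followed by guanines (CpG sites). OCT1 is encoded by *POU2F1*, and this POU-domain factor recognizes an octamer whose classical form reads ATGCAAAT.

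The sequences under the strongest peaks come first, since tandem repeats lay under the summits at 3 of the 4 genes. Coordinates and sequences are those of GRCh37. *CACNA1C* spans chr12:2079938-2807116 and *CACNA1B* chr9:140772234-141019076, both on the plus strand. *CACNA2D1* lies on the minus strand at chr7:81575760-82073272 and *RYR2* on the plus strand at chr1:237205484-237997288. The strongest peak of *CACNA1C* lay in intron 3 on an array of a 30-base unit at chr12:2364960-2365256. The array holds 9 full copies and a last part of 27 bases, with 8 CpG sites in all. Of the full copies, 4 are identical. They are printed so that the unit, its CpG and its variation can be seen, with capitals at each base that differs from the most common copy.
copy 1: cctgacctTactagtttacaatcacacgaT
copy 2: cctgacctTactagtttacaatcacaGgaT
copy 3: cctgacctgactagtttacaatcacacgac
copy 5: cctgacctTactagtttacaaCcacacgac
copy 8: cctgacctgactagtttacaatcacacgaT
copy 9: cctgacctgactaCtttacaatcacacgaT
last part: cctgacctTactagtttacaatcacac
Copies 4, 6 and 7 equal copy 3. Copy 2 is the only full copy without a CpG site. The array is known to differ in copy number between human genomes, and the number in MCF10CA1a cells was not measured. The octamer stands once in the peak, outside the array, on the plus strand at chr12:2365317-2365324. It is printed in capitals with its flanks, chr12:2365301-2365340.
octamer beside the array: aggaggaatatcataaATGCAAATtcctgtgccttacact

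The strongest peaks of *CACNA2D1* and *RYR2* lay on tracts of alternating T and G. At *CACNA2D1*, the tract runs over 50 bases without interruption at chr7:81821777-81821826, in intron 3, and is printed in capitals with its flanks, chr7:81821707-81821846. It is given on the plus strand, while the gene runs on the minus strand.
CACNA2D1 tract: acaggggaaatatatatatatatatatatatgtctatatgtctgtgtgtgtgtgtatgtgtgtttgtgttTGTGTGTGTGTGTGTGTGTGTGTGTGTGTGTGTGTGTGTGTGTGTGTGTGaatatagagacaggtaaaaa
At *RYR2*, the tract spans 75 bases at chr1:237955650-237955724, in intron 94 of 105 exons, and 2 CpG sites interrupt it. Its longest perfect part has 32 bases. The printed stretch, chr1:237955605-237955744, opens with the last bases of coding exon 94, which ends at position 237955623.
RYR2 tract: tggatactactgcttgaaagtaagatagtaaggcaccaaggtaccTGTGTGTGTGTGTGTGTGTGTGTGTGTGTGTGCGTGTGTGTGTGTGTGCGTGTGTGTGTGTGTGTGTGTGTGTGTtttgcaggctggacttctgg

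Each peak comes with a P-value that is a score on the authors' own scale, 10 to the power of −x/10, where x is the −log10 p from MACS2. Peaks with a score under 0.05 are called past the threshold here. In each of the 4 lists this equals a pileup of at least 24. Among the calcium channel genes, 3 of 16 DNMT3B peaks in vehicle-treated cells were past it, against 7.57% of all peaks of that list. Upon PTS it was 3 of 8, against 24.6% of the list. For OCT1 it was 3 of 73 in vehicle-treated cells, against 2.37%, and 4 of 10 upon PTS, against 9.11%. Since the genes were chosen from these lists, nothing is read from these shares. Just inside the threshold stood the OCT1 peak of *CACNA2D1* in vehicle-treated cells, with a pileup of 24 and a P-value of 0.0496. Just outside stood a DNMT3B peak of *CACNA1B* in vehicle-treated cells, with a pileup of 23 and a P-value of 0.0501.

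**Figure D1:**
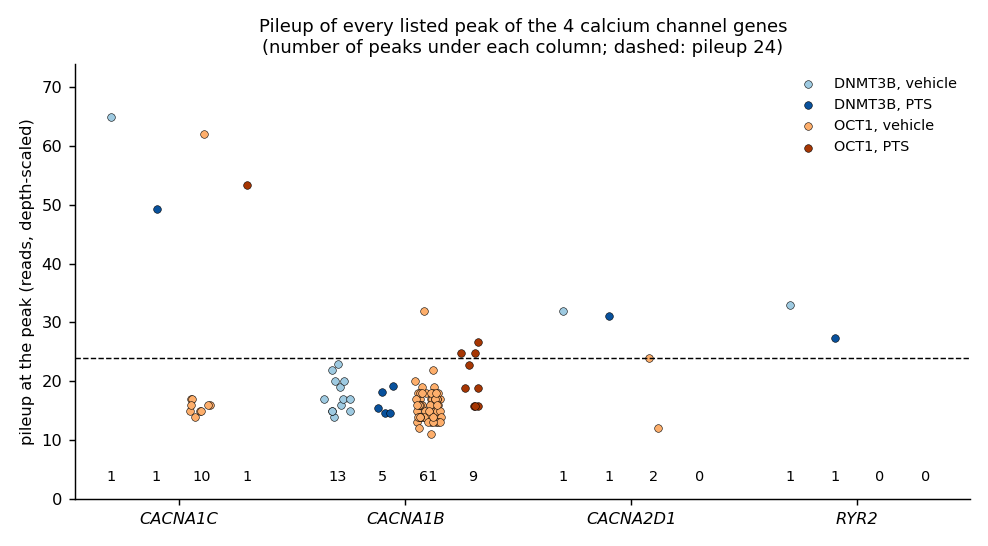
Pileup at the summit (vertical axis, reads scaled to equal depth) of each listed peak of the 4 genes, by antibody and treatment. Each point is a peak of 3 pooled replicates, the numbers give the peaks per column, and the dashed line marks a pileup of 24. *CACNA1C* holds the highest peaks, from 49.31 to 65, and *CACNA1B* the most peaks, 88 of 107.

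*CACNA1C* held the highest pileups of the 4 genes, at the same place for both antibodies. In vehicle-treated cells DNMT3B reached a pileup of 65 (fold 15.7, P-value 8.36e-07) at chr12:2364867-2365343. Upon PTS it reached 49.31 (P-value 8.72e-05) over chr12:2364958-2365325. OCT1 reached 62 (fold 14.0) in vehicle-treated cells and 53.44 (fold 12.1) upon PTS. For both antibodies the higher value was in vehicle-treated cells. The ratio of PTS over vehicle was 0.759 for DNMT3B, with an exact 95% counting interval from 0.519 to 1.11, and 0.862 for OCT1 (0.587 to 1.26). Both intervals include 1, and they cover counting error only.

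All 4 summits of this *CACNA1C* peak fell inside the array, 35 to 47 bases from its centre. The array makes up 62.3% of the DNMT3B peak in vehicle-treated cells and 80.7% of the shorter peak upon PTS. In the ChromHMM track of human mammary epithelial cells (HMEC), which the authors used for chromatin states, the place carries both repetitive/CNV states, and 3 of the 4 lists name them. The DNMT3B list upon PTS names 15_Repetitive/CNV alone. The DNMT3B list of vehicle-treated cells and the OCT1 list upon PTS also name heterochromatin or low signal (13_Heterochrom/lo). The octamer lay 162 to 174 bases from the summits. Of OCT1 peaks in vehicle-treated cells with a length within 10% of this one, 1.46% hold an octamer on either strand, and 4.17% a tandem repeat. Over the lists at any length, the octamer stood in 1.46% and 1.41% of DNMT3B peaks and in 0.873% and 1.22% of OCT1 peaks, in vehicle-treated and PTS-treated cells. A match is a description of the letters and not of binding.

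*CACNA1C* had 9 further peaks, all of OCT1 in vehicle-treated cells, all in introns and none past the threshold. By state, 5 were in heterochromatin or low signal, 2 were Polycomb-repressed, 1 was in weak transcription and 1 in weak enhancer. Their pileups ran from 14 to 17, against a lowest listed value of 11 in that list and 12.86 in the OCT1 list upon PTS. They lay from 42.7 to 596.3 kb downstream of the start of the canonical transcript. One of them, at chr12:2296490-2296689 with a pileup of 16, holds an octamer 7 bases from its summit. It is shown on the minus strand, chr12:2296552-2296591, with the octamer in capitals.
octamer in intron 3: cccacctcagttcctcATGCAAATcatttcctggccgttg
The other *CACNA1C* octamer, beside the array, was farther from its summit. Among OCT1 peaks in vehicle-treated cells with a length within 10% of 200 bp, 0.519% hold an octamer.

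*CACNA2D1* had 1 DNMT3B peak in each treatment, in intron 3, with nearly equal pileups. The pileup was 32 (fold 7.86, P-value 0.00688) in vehicle-treated cells and 31.05 (fold 7.63, P-value 0.00870) upon PTS. In whole reads before the authors' scaling, the 2 values were 32 and 34. The ratio was 0.970 (0.581 to 1.62), and without the scaling 1.06, so the direction depends on it. OCT1 had a peak of 24 at the same place in vehicle-treated cells and none listed upon PTS, where the list starts at 12.86. What pileup lay there below that limit is not known, so no fold is given.

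The 3 *CACNA2D1* summits lay 12 to 26 bases from the centre of the tract printed above. The DNMT3B summit in vehicle-treated cells was the base just before the perfect tract. It lay inside the longer interrupted repeat around the tract, chr7:81821716-81821826, which opens with alternating A and T. The state was heterochromatin or low signal (13_Heterochrom/lo) in each list. No CpG site stands in any of these 3 peaks, and G and C make up 32.7% of the bases of the DNMT3B peak in vehicle-treated cells. The median peak of that list has 1.15 CpG sites per 100 bp and 49.0% G and C. A further OCT1 peak in vehicle-treated cells, with a pileup of 12, lay 64.0 kb upstream of the start of *CACNA2D1*, outside the gene.

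*RYR2* had 1 DNMT3B peak in each treatment and no listed OCT1 peak. The pileup was 33 (fold 8.10, P-value 0.00543) in vehicle-treated cells and 27.39 (fold 6.76, P-value 0.0215) upon PTS. The ratio was 0.830, with an interval from 0.489 to 1.40 that includes 1. Both peaks begin in coding exon 94, which fills 107 of 334 bases in vehicle-treated cells and 100 of 324 upon PTS. Both summits lay past the exon, inside the tract in the intron, at 15 and 1 bases from its centre. The states were weak enhancer and weak transcription (7_Weak_Enhancer and 11_Weak_Txn). *RYR2* is the only one of the 4 genes with an enhancer state at a DNMT3B peak, and 8.49% of all DNMT3B peaks in vehicle-treated cells have state 7. Each *RYR2* peak holds 6 CpG sites.

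**Figure D2:**
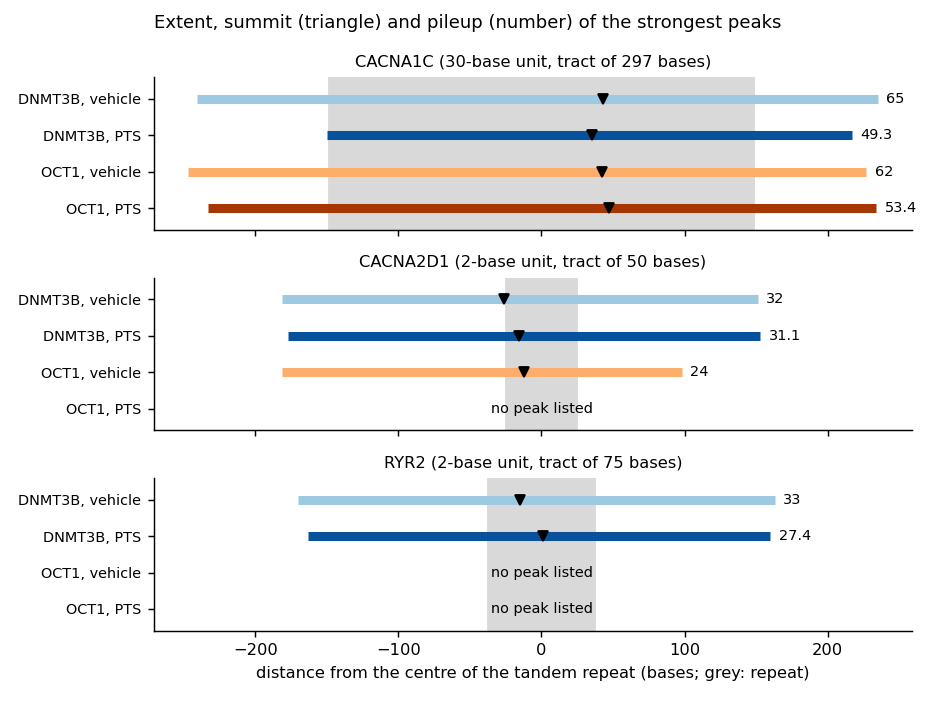
Extent of the strongest peaks of *CACNA1C*, *CACNA2D1* and *RYR2* in each list (bars), with the summit (triangle) and the pileup (number), by distance in bases from the centre of the tandem repeat (grey). The summits of *CACNA1C* lie 35 to 47 bases from the centre, those of *CACNA2D1* 12 to 26 bases and those of *RYR2* 1 and 15 bases.

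*CACNA1B* carried most of the peaks, 88 of 107, and most of them were low. DNMT3B had 13 peaks in vehicle-treated cells, with pileups from 14 to 23 (median 17), and 5 upon PTS, from 14.61 to 19.17 (median 15.52). None of these was past the threshold. OCT1 had 61 peaks in vehicle-treated cells, from 11 to 32 (median 16), of which 1 was past it. Upon PTS it had 9 peaks, from 15.83 to 26.72 (median 18.8), of which 3 were past it. The DNMT3B ranges of the treatments overlap, as do those of OCT1.

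By number, the DNMT3B peaks of *CACNA1B* gathered in a stretch from 1.9 to 13.5 kb downstream of its transcription start, while most of its OCT1 peaks in vehicle-treated cells lay elsewhere in the gene. Its ends, chr9:140774098-140785712, were set after seeing the data as the outermost peaks with a Polycomb-repressed or poised promoter state (12_Repressed, 3_Poised_Promoter). The stretch held 11 of 13 DNMT3B peaks in vehicle-treated cells and 5 of 5 upon PTS. For OCT1 it held 3 of 61 in vehicle-treated cells and 5 of 9 upon PTS, including each *CACNA1B* peak past the threshold. Those 3 OCT1 peaks covered 9084 bases, against 18474 bases for the 58 outside the stretch, so the count understates OCT1 there. Of all DNMT3B peaks in vehicle-treated cells, 3.08% carry the Polycomb-repressed state, and 3.37% upon PTS. For OCT1 it is 4.05% and 4.59%. Each of the 24 peaks in the stretch carries it. Since the ends of the stretch were set by state after seeing the data, nothing is read from this count. The peaks in the stretch are also assigned to LOC100133077, as 26 of the 88 *CACNA1B* peaks are, so the gene name there is shared.

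Within the stretch, OCT1 peaks in vehicle-treated cells were long and covered 78.2% of it. One of 5819 bp reached a pileup of 32 (P-value 0.00900), and one of 2680 bp reached 22. Upon PTS the 5 OCT1 peaks covered 44.7%, with pileups of 24.74, 26.72, 22.76, 24.74 and 15.83 along the gene. DNMT3B peaks were at most 560 bp long and covered 30.3% in vehicle-treated cells and 16.6% upon PTS. At the OCT1 region of both long peaks, the highest pileup upon PTS was 0.835 times that of vehicle (0.481 to 1.44). The 2 summits lay 5054 bases apart, and no listed peak upon PTS covered the vehicle summit, so this ratio compares the highest points of the region and not a single site. When the pileups of all peaks in a region are added instead, the OCT1 regions in both treatments, at *CACNA1C* and *CACNA1B*, give 1.41 in place of 0.891. The DNMT3B regions of all 4 genes then give 0.607 in place of 0.823. The OCT1 region of the long peaks counts as 2 peaks in vehicle-treated cells and 5 upon PTS.

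The highest DNMT3B peak of *CACNA1B* lay in intron 3 at chr9:140777837-140778086, 5.7 kb from the start, with a pileup of 23. It holds 3 CpG sites, printed in capitals to show where they stand in the DNMT3B peak. That is 1.20 per 100 bp, against a median of 1.15 in its list.
CACNA1B peak: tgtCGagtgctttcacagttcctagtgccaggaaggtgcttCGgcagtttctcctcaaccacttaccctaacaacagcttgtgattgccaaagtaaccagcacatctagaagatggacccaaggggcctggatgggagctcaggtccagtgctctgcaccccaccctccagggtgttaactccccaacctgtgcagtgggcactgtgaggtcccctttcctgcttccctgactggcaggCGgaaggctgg
Upon PTS, the nearest DNMT3B peak had a pileup of 19.17, and the ratio of that region was 0.834 (0.439 to 1.58). Other DNMT3B regions of the stretch with a peak in both treatments gave ratios of 0.730, 1.07 and 0.664, and each interval includes 1. In the last of these the highest summits of the treatments lay 572 bases apart.

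A repeat of a 59-base unit stands 11.2 kb from the start of *CACNA1B*, at chr9:140783394-140783601, in the part with the poised promoter state. Peaks of all 4 lists reach into it. It is printed because it is richer in CpG than the peak above, with 11 sites in 208 bases, and capitals mark the bases that differ from the first copy.
copy 1: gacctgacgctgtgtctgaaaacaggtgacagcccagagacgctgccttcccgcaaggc
copy 2: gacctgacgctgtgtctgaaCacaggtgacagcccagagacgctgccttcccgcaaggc
copy 3: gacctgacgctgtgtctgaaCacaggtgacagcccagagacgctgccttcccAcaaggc
last part: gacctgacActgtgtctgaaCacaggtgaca
DNMT3B reached a pileup of 17 in vehicle-treated cells and 18.26 upon PTS at the peaks over this repeat. The summit lay inside it only for DNMT3B in vehicle-treated cells.

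Outside the stretch, *CACNA1B* had 58 OCT1 peaks in vehicle-treated cells and 4 upon PTS. All were below the threshold and in heterochromatin or low signal. Their pileups ran from 11 to 19 (median 15.5) in vehicle-treated cells and from 15.83 to 18.8 upon PTS. A single place outside the stretch had an OCT1 peak in both treatments, chr9:140843473-140843734, with 17 in vehicle-treated cells and 18.8 upon PTS, a ratio of 1.11 (0.544 to 2.27). Of the 2 DNMT3B peaks outside the stretch, with pileups of 17 and 15, the second lay over coding exon 27.

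**Figure D3:**
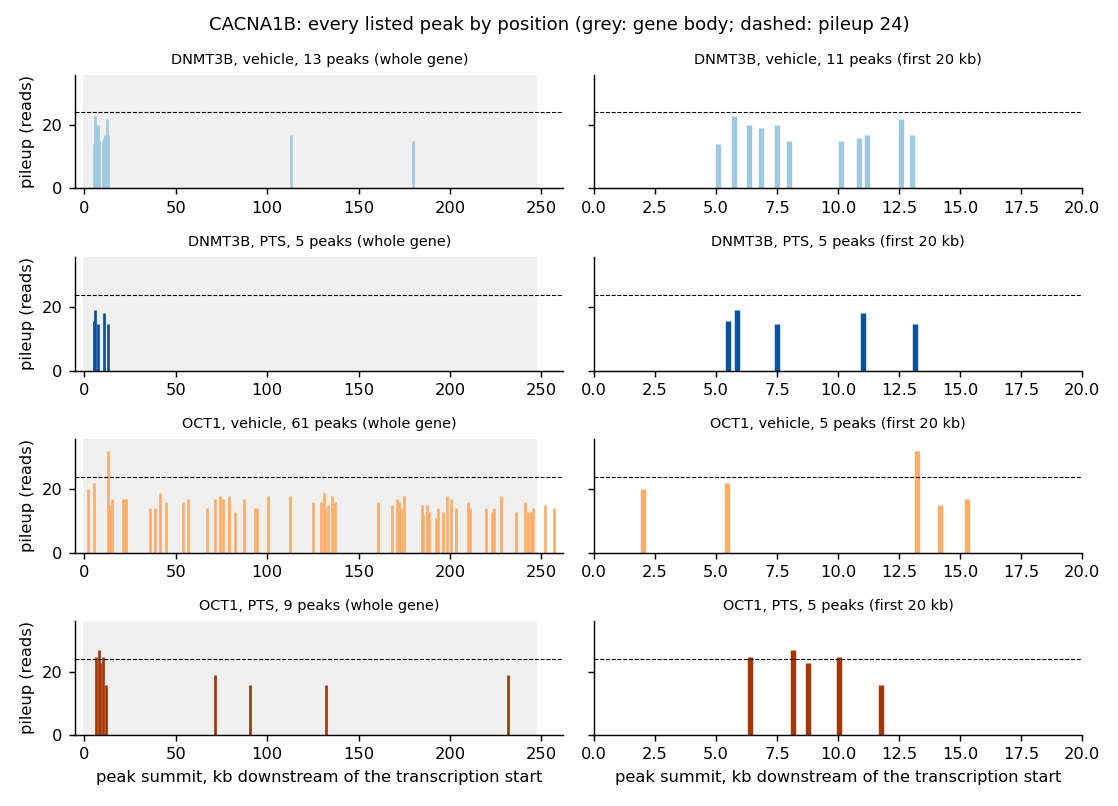
Every listed peak of *CACNA1B* by the distance of its summit from the transcription start (horizontal axis, kb) and its pileup (vertical axis, reads), over the whole gene (left) and its first 20 kb (right), for each list. Bars are single peaks, grey marks the gene body and the dashed line a pileup of 24. DNMT3B peaks sit between 5.1 and 13.1 kb except for those at 112.9 and 180.0 kb, while OCT1 peaks in vehicle-treated cells run along the whole gene.

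*CACNA1B* lay in a part of chromosome 9 with many OCT1 peaks. The gene held 23.9 OCT1 peaks per 100 kb in vehicle-treated cells, against 36.8 in the 1 Mb before it, 11.7 on the whole of chromosome 9 and 2.67 over chromosomes 1 to 22 and X. For DNMT3B in vehicle-treated cells the gene had 5.27, the 1 Mb before it 2.00, chromosome 9 2.97 and all chromosomes 0.488. Upon PTS, the 1 Mb before it held no DNMT3B peak, and the gene held 5. The part of the surroundings in the count at *CACNA1B* was not tested. *RYR2* stood the other way: with 0 OCT1 peaks in 791.8 kb in vehicle-treated cells, it lay on a chromosome with 4.19 per 100 kb, while the 1 Mb before it held 5 peaks and the 1 Mb after it 4. *CACNA2D1* had 0.201 OCT1 peaks per 100 kb and *CACNA1C* 1.38 in vehicle-treated cells. Among 15123 genes with an OCT1 peak in vehicle-treated cells, 130 had more than the 61 of *CACNA1B*, and the median was 2.

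**Figure D4:**
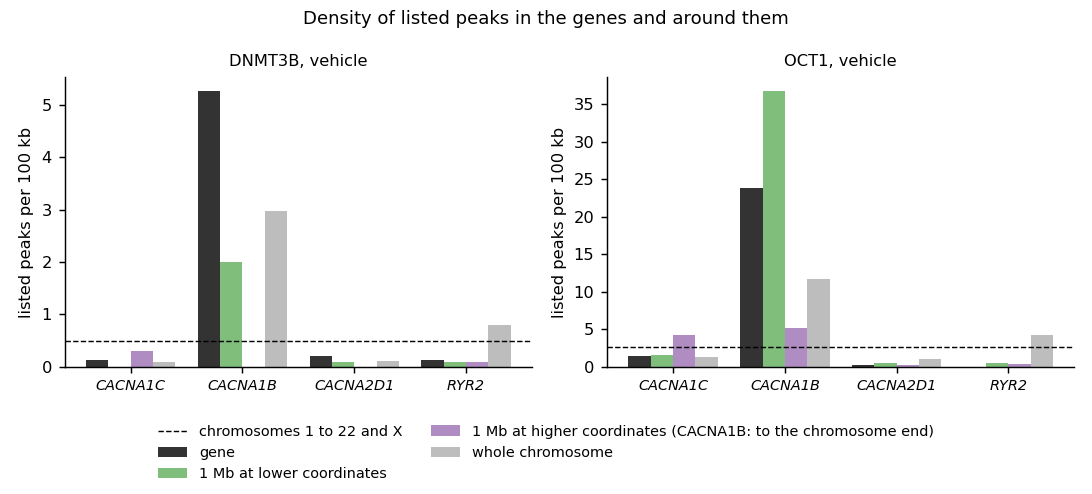
Listed peaks per 100 kb (vertical axis, from 0) in each gene, in the 1 Mb on either side, on its chromosome and over chromosomes 1 to 22 and X (dashed), for DNMT3B and OCT1 in vehicle-treated cells. For OCT1, the 1 Mb before *CACNA1B* holds 36.8 per 100 kb, more than the 23.9 of the gene itself, while for DNMT3B the gene, with 5.27, stands above the 2.00 before it.

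Regions with a peak in both treatments were compared by their highest pileup. DNMT3B had 7 such regions at these genes, 4 of them in the *CACNA1B* stretch, and the vehicle value was higher in 6. Among these 6 was *CACNA2D1*, whose ratio was 0.970 with the authors' scaling and 1.06 without it. Over the whole series vehicle was higher in 50.4% of 2290 such regions. The ratio of the summed pileups was 0.823 (0.673 to 1.01). OCT1 had 3 such regions, 1 of *CACNA1C* and 2 of *CACNA1B*. Vehicle was higher in 2 of the 3, against 47.2% of 7946 in the series, and the ratio was 0.891 (0.674 to 1.18). Regions in both treatments made up 14.2% of all DNMT3B regions and 9.60% of all OCT1 regions. With regions whose highest summits lay at most 200 bp apart, an alternative added after seeing the data, the ratios were 0.841 for DNMT3B and 0.914 for OCT1. No region of the 4 genes had an interval that excluded 1. In the series it lay below 1 in 0.131% of DNMT3B regions and in 0.151% of OCT1 regions, and above 1 in 0.0437% and 0.126%. The width of the interval differed with the pileup, from 0.519 to 1.11 at the DNMT3B region of *CACNA1C* to 0.544 to 2.27 at the OCT1 region of *CACNA1B* outside the stretch, and a difference within a region's interval was not detectable at this depth. These 10 regions thus stand in both lists of an antibody, the one labelled as enriched in control cells and the one labelled as enriched upon PTS. At DNMT3B, 3 of 10 regions were listed in vehicle-treated cells only and none upon PTS only. In the series it was 12502 and 1321 of 16113 DNMT3B regions. For OCT1 it was 67 of 73 and 3 of 73, against 68992 and 5871 of 82809 in the series.

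**Figure D5:**
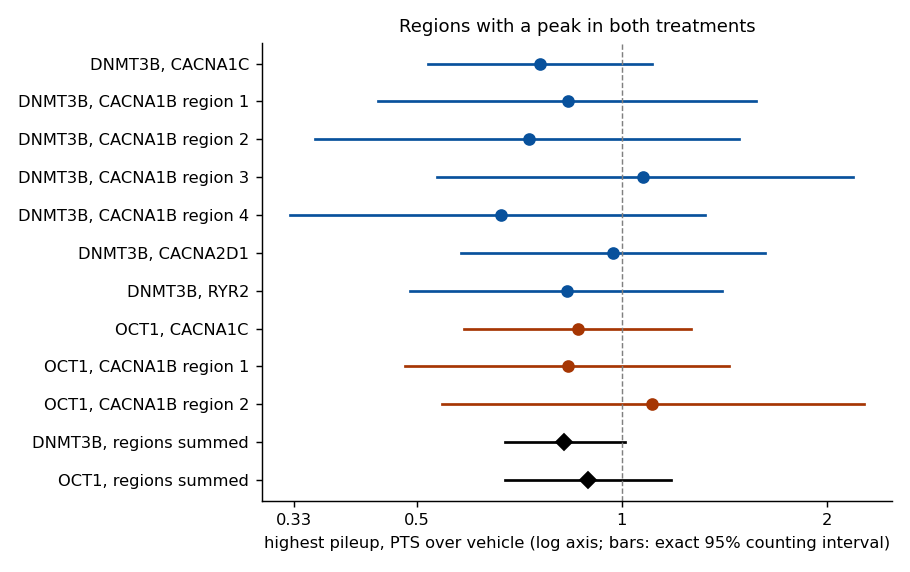
Highest pileup upon PTS over that in vehicle-treated cells (log axis) at each region with a peak in both treatments, and for the regions of an antibody summed (diamonds). Points are ratios of pooled replicates, bars are exact 95% counting intervals, and CACNA1B regions are numbered along the gene. Every interval includes 1, and the summed ratios are 0.823 for DNMT3B and 0.891 for OCT1.

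DNMT3B and OCT1 peaks lay close together at 3 of the 4 genes. In vehicle-treated cells 13 of 16 DNMT3B peaks had an OCT1 peak at most 200 bp away, against 55.5% of the list. Upon PTS it was 5 of 8, against 66.8%. In vehicle-treated cells these were the *CACNA1C* and *CACNA2D1* peaks and 11 of the 13 *CACNA1B* peaks. Those 11 lay near only 2 OCT1 peaks, the long ones of 2680 and 5819 bp. Upon PTS the DNMT3B peaks with an OCT1 peak nearby were the *CACNA1C* peak and 4 of 5 at *CACNA1B*. *CACNA2D1* had no OCT1 peak upon PTS, and *RYR2* had none in either treatment. Of OCT1 peaks in vehicle-treated cells, 4 of 73 lay near a DNMT3B peak, against 11.0% of the list, and upon PTS 5 of 10, against 18.3%. Between treatments, 10 of 16 DNMT3B peaks in vehicle-treated cells lay near one upon PTS, against 18.7%, and 8 of 8 the other way, against 68.9%. For OCT1 it was 4 of 73, against 12.5%, and 7 of 10, against 63.0%.

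By position, 98 of the 107 summits lay in introns of the canonical transcripts, 4 in coding exons and 3 outside the genes. The remaining 2 lay in the untranslated part of the last exon of *CACNA1B*. None lay within 1 kb of the start of the canonical transcript of its gene, the only start measured. The nearest was the *CACNA1B* OCT1 peak of vehicle-treated cells at 2.0 kb. The same shares over all peaks of the lists were not measured, and *CACNA1B* gave 88 of the 107 peaks. Nothing particular to these genes is therefore read from the positions.

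Tandem repeats were counted over all peaks on the reference chromosomes. Perfect repeats, with units no longer than 6 bp and 24 bp or more in all, stood in 5 of 107 peaks, which are the 3 of *CACNA2D1* and the 2 of *RYR2* on their tracts. Such repeats stood in 4.63% of all DNMT3B peaks in vehicle-treated cells and 9.54% upon PTS, and in 1.48% and 2.60% of OCT1 peaks. With units of up to 100 bp and interruptions allowed, a search added after seeing the data, it was 21 of 107. Over the lists it was 6.88% and 15.3% for DNMT3B and 2.70% and 4.80% for OCT1, in vehicle-treated and PTS-treated cells. Of the 13 peaks past the threshold, 12 held such a repeat and 9 had their summit in it. Among all peaks past the threshold, 45.1% of those for DNMT3B in vehicle-treated cells held such a repeat, and 43.4% upon PTS. For OCT1 it was 25.1% and 31.1%. The summit fell in the repeat in 31.3% and 30.3% of those DNMT3B peaks and in 14.0% and 18.3% of those OCT1 peaks. Since repeats are frequent among high peaks of each list, and the genes were chosen from them, nothing particular to these genes is read from the count. The exception among the 13 was the OCT1 peak of *CACNA1B* upon PTS at chr9:140779756-140780539. Of the 107 peaks, 1 had a second place in the genome with nearly the same sequence, an OCT1 peak of vehicle-treated cells beyond the end of *CACNA1B*. In the DNMT3B list of vehicle-treated cells it was 5.32% of peaks, and 1.71% in that of OCT1. Upon PTS it was 13.6% and 5.12%.

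Other genes of calcium handling had peaks too, mostly below the threshold. The list written for this holds 68 genes in 12 groups, the 4 above included. Any listed peak was found for 56 of the 68, and 55 of these 56 had one for OCT1 in vehicle-treated cells, where 97.1% of the 15580 genes named in the 4 lists have one. For DNMT3B it was 15 of the 56 in vehicle-treated cells and 6 of the 56 upon PTS, against 23.9% and 6.02% of the named genes, and for OCT1 upon PTS 10 of the 56, against 21.4%. Past the threshold were 3 genes for DNMT3B in vehicle-treated cells and 3 upon PTS, each time *CACNA1C*, *CACNA2D1* and *RYR2*, for which they were chosen. Of all the genes named, 1.95% and 1.53% were past it. Of the 52 other calcium genes with any listed peak, 11 had a listed DNMT3B peak in vehicle-treated cells and 2 upon PTS, and none was past the threshold. For OCT1, 2 of the 52 were past it in vehicle-treated cells and 1 upon PTS, against 3.03% and 1.75% of the genes.

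One of the genes past it for OCT1 in vehicle-treated cells was *MCU*, the pore of the uniporter through which mitochondria take up calcium. *MCU*, on chromosome 10, had 224 listed peaks in the 4 lists together. Its highest pileups were 22 and 22.83 for DNMT3B and 27 and 23.75 for OCT1, in vehicle-treated and PTS-treated cells. It was thus below the threshold for OCT1 upon PTS. The highest DNMT3B peaks assigned to *MCU* lay outside the gene, at -29502 bp in vehicle-treated cells and -27769 bp upon PTS. The density of peaks around *MCU* was not measured. *CACNA1E*, another pore subunit, had 110 peaks, none past the threshold. The beta subunits of the voltage-gated channels had no DNMT3B peak, and 3 of 4 had an OCT1 peak in vehicle-treated cells. Of the ryanodine receptors, *RYR1* had 9 and *RYR3* 5 OCT1 peaks in vehicle-treated cells and none in the other lists, the reverse of *RYR2*.

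The genes most like *CACNA1C* and *CACNA1B* were taken by the highest pileup in the 4 lists, as the distance of the log2 values, among the 748 genes with a peak in all lists. Nearest to *CACNA1C* were LINC01163 (distance 0.301), LINC00910 (0.326) and LINC01410 (0.355). LINC01163 had 62 and 41.09 for DNMT3B and 63 and 58.38 for OCT1, in vehicle-treated and PTS-treated cells. Nearest to *CACNA1B* was LOC100133077 at 0, since it shares the peaks, followed by *DENND4C* (0.104) and *NT5M* (0.149). *RYR2* and *CACNA2D1* could not be ranked, since neither has an OCT1 peak upon PTS.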

How the data were processed

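Per the methods of the authors, reads went through cutadapt and BWA (GRCh37/hg19), and MACS2, set to fragments of 200 bp, called peaks on 3 pooled replicates with input as background. Genes came from ChIPseeker and states from HMEC ChromHMM, and tool versions are not given in the sources used here. The deposited pileup is a signal, the height of pooled fragments at the summit, scaled by 0.913 (DNMT3B) and 0.990 (OCT1) upon PTS. The deposited fold is a ratio, pileup plus 1 over the constant background plus 1. No local input value enters this fold, although the methods name input as background. The authors gave −log10 p-values, and the deposited P-value is a score made from them. Members and gene lists were chosen with earlier results of these data known.

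Each peak was counted once, with all its states, and split chromosome X names were rejoined. Peaks of 2 treatments at most 200 bp apart formed a region, and its highest pileup was compared, with exact Clopper-Pearson 95% intervals of whole reads. Pileups are no independent molecules, so intervals cover counting error only. No model was fitted, since no list has replicates. Gene parts came from the canonical transcripts of GENCODE 44 on GRCh37. Repeats were perfect ones of at least 24 bp with units up to 6 bp, or units up to 100 bp with a mismatch cost of 3 and a score of at least 24. Near-identical copies, searched with minimap2 2.31-r1302, had 90% identity over 80% of a peak. Named genes were the 4 members, genes of the calcium list past 0.05 or with the most peaks, and the 3 genes most like a member. Of these, 1 gene of the calcium list is not reported here. *CACNA1E*, *RYR1* and *RYR3* were named after their values were seen. The code, in Python 3.11.15 (scipy 1.17.1, pandas 2.3.3, numpy 2.4.6, pysam 0.24.0, matplotlib 3.10.9), was tested on simulated data. Alternatives were other thresholds, overlaps, repeat lengths, merged peaks, lines, unscaled reads and summed pileups. The input libraries and reads were not analysed here.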

Additional observations from a re-analysis of the deposited data

How the results depend on the processing

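No paired analysis was possible because each list pools its 3 replicates and no column belongs to a single one, and no replicate could be left out for the same reason. Counts of peaks past the threshold (3 and 3 for DNMT3B in vehicle-treated and PTS-treated cells, 3 and 4 for OCT1) became 16, 8, 73 and 10 with no threshold, and 16, 8, 70 and 10 when only peaks at or above the higher of the lowest pileups of the antibody's lists were kept. Counted as lines they were 5, 5, 6 and 8, since a line is given for each state and gene. At 0.01 the counts were 3, 2, 2 and 1, so that *RYR2* upon PTS (P-value 0.0215, DNMT3B), *CACNA2D1* in vehicle-treated cells (0.0496, OCT1) and the 3 *CACNA1B* peaks of OCT1 upon PTS were no longer past it. Merging peaks moved no count. With the pileups of a region added, the pooled ratio became 0.607 for DNMT3B and 1.41 for OCT1, while it stayed within its interval under the other alternatives, among them the *CACNA1C* region left out and only regions with near summits kept (both added after seeing the data). Peaks with a tandem repeat were 3 at 36 bp or more, 8 at 18 bp or more and 21 with any unit up to 100 bp. Without the OCT1 list of vehicle-treated cells, an alternative added after seeing the data, 20 calcium genes had a peak in place of 56. Counts of DNMT3B peaks near an OCT1 peak stayed within 1.5 times under all 4 alternatives. The cause was not tested where none is named. Pileups of 14.61 to 65 limit the precision of the regions compared, and the lists hold no value below their lowest pileup, from 11 to 12.86.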
